A study of Mus musculus with 5 samples.

Results

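The 9 genes described here sense foreign RNA or are switched on by interferon: Ddx58, Ifih1, Dhx58, Eif2ak2, Ifit1, Ifit3, Isg15, Mx2 and Irf7. They were taken by name, as RNA sensors and interferon-induced genes relevant to siRNA transfection, from 54838 genes listed in each file, and all 9 were found by Ensembl identifier. N2a is a mouse neuroblastoma line, and its total RNA was sequenced in 2 libraries from cells given a control siRNA (siCtrl) and 3 libraries from cells given an siRNA to Ewsr1, an RNA-binding protein gene (siEwsr1). In both groups 50000 cells received 2 pulses of Lipofectamine RNAiMAX and were collected 24 hours after the second pulse, with the siRNA concentration stated as 100 µM in the labels, an unusual unit for transfection that the labels do not settle. Both groups therefore carried siRNA and lipid. Untransfected cells were not analysed here, so the comparison does not measure what transfection itself did to these genes. The effect of the siRNA against Ewsr1 as an oligonucleotide and the effect of less Ewsr1 cannot be told apart, since the siRNA differs between the groups whenever Ewsr1 does. Whether the replicates were grown as separate cultures is not stated, and the p-values then cover only the library-to-library spread, which could be technical.

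RNA that enters the cytoplasm can be bound by RIG-I (encoded by Ddx58) and MDA5 (Ifih1), helicases that signal through the adaptor MAVS to the transcription factors IRF3 and IRF7. LGP2 (Dhx58) is a relative without the signalling domains that modulates both. PKR (Eif2ak2) is a kinase that double-stranded RNA activates to phosphorylate eIF2alpha and slow translation. Interferons that are secreted after sensing act through cell-surface receptors, JAK kinases and STAT factors, which bind the interferon-stimulated response element in the promoters of interferon-induced genes. Those genes include the sensors themselves as well as Ifit1 and Ifit3 (proteins that act on viral RNA and its translation), Isg15 (a ubiquitin-like modifier) and Mx2 (a dynamin-like GTPase).

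The response element is a sequence feature that does not depend on the measurements, and it could be looked for in 7 of the 9 genes. Its core was searched as GAAA, 2 bases of any kind and GAAA again, or TTTC, 2 bases and TTTC on the other strand, in RefSeq promoters (GRCm38.p6, 250 bases before to 50 after the start), of which 7 of the 9 genes had one in the table, without Dhx58 and Mx2. Matches lay in 6 of these 7 promoters, against 1131 of 32851 promoters (3.44%). In the sites printed here, in the direction of the gene's transcription, capitals mark the matches.
Ddx58: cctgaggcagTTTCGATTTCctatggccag
Ifih1: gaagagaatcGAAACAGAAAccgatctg
Eif2ak2: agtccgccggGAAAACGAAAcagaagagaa
Ifit1: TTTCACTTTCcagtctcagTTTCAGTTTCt
Ifit3, site farther from the start: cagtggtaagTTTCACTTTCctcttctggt
Ifit3, site nearer to the start: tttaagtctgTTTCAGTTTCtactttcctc
Isg15: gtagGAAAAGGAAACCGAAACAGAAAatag
The sites are at chr4:40239804-40239833 (Ddx58, minus strand), chr2:62646206-62646233 (Ifih1, minus strand), chr17:78882535-78882564 (Eif2ak2, minus strand), chr19:34640785-34640814 (Ifit1, plus strand), chr19:34583363-34583392 and chr19:34583397-34583426 (Ifit3, plus strand) and chr4:156200871-156200900 (Isg15, minus strand). The Isg15 stretch holds 3 overlapping matches, and Ifit1 holds 2 matches that begin at positions -104 and -85 from the start. In Ddx58, Ifih1 and Eif2ak2 the match begins 2, 32 and 18 bases after the annotated start. For Irf7 these letters were not in the window. A match is a description of sequence and was not tested for binding. In a summary added after the results were seen, 6.41% of the 343 tested genes with a match were called, 18 lower and 4 higher, and their median log2 fold change was -0.055. Of the 9641 with a promoter but no match 5.91% were called, 279 higher and 291 lower, with a median of -0.0072. The difference in direction was not tested.

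Levels are RPKM, reads scaled to the exonic kilobases of the gene and to the library total, restored from deposited values that had lost their decimal points. A total of 15045774 to 21339459 reads was counted per library, and limma was run on the 14844 genes that 2 or more libraries held at 10 reads or above, after scaling to the median depth. Fold changes are differences of log2(RPKM + 0.1), siEwsr1 minus siCtrl, with their standard error (SE), and understate changes of genes near the pseudocount. A gene was called at a limma adjusted p under 0.05, which 5.25% of tested genes reached, 2.43% higher and 2.82% lower in siEwsr1. In 39.8% of tested genes the groups did not overlap, with every siEwsr1 library higher in 19.3% and lower in 20.6%. An unadjusted p under 0.05 was reached by 22.1% of tested genes, 10.8% higher and 11.4% lower. Ewsr1 (chr11:5069689-5099266) was at 71.7 and 72.3 RPKM in siCtrl and at 35.7, 36.3 and 37.6 in siEwsr1, a log2 fold change of -0.96 ± 0.08 (SE; limma, adjusted p = 8.42e-04), so every library matched its label. Of the N2a identity markers, Mycn was at 7.45 ± 0.168 RPKM in siCtrl and rose to 10.2 ± 0.740 in siEwsr1 (mean ± SD; limma, adjusted p = 0.0394), and Isl1 was at 8.21 ± 0.349 and rose to 14.6 ± 1.33 (limma, adjusted p = 0.00443). The part of this shift in the results below was not tested.

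Mx2 and Ddx58 fell, and none of the 7 tested genes was called higher. The 2 called genes are 28.6% of the 7, beside 5.25% of all tested genes. In bulk RNA, fewer cells with an RNA and less of it per cell cannot be told apart. In the same limma fit 5 genes were tested and not called, of which Dhx58 and Ifit1 were higher in every siEwsr1 library than in either siCtrl library. Ifit3 and Irf7 had too few reads to be tested. Such a lack of overlap, with siEwsr1 higher, was found in 19.3% of all tested genes, and Ifit1 entered the test only through its siEwsr1 libraries. With siEwsr1 lower, as in Mx2 and Ddx58, it was found in 20.6%. In either direction it held for 57.1% of the 7 genes, beside 39.8% of all tested genes. Most of the 9 genes were low. Eif2ak2 stood at 10.6 ± 0.436 RPKM (mean ± SD, n = 2) in siCtrl, where 32.0% of tested genes had a higher mean level over the 5 libraries. The next were Mx2 (1.69 ± 0.255), Ddx58 (1.46 ± 0.0602) and Isg15 (0.805 ± 0.166). Lower still were Dhx58 (0.345 ± 0.0881) and Ifih1 (0.325 ± 0.141), whose siCtrl values overlapped, then Ifit3 (0.121 ± 0.0165) and Irf7 (0.0940 ± 0.0617), which overlapped too, and Ifit1 (0.0217 ± 0.0308). In siEwsr1 the order below Eif2ak2 (10.9 ± 1.29, n = 3) was Isg15, Ddx58, Dhx58, Mx2, Ifit1, Ifih1, Irf7 and Ifit3. There the range of Isg15, 0.440 to 1.59 RPKM, spanned all values of Ddx58 and Dhx58 and the highest value of Mx2, so that these 4 genes are not fully ordered.

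**Figure D1:**
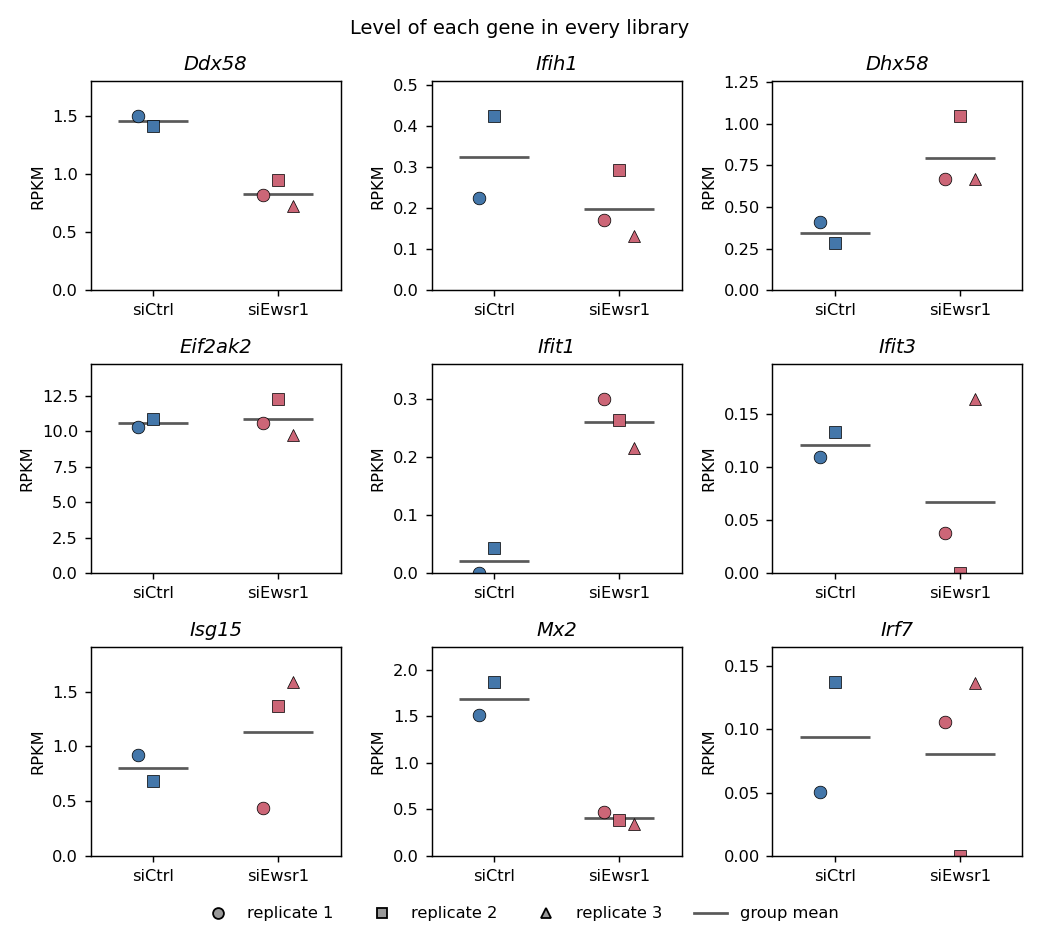
RPKM (vertical axes, each from 0 and on its own scale) of the 9 genes in the 2 siCtrl and 3 siEwsr1 libraries, with the replicate shown by the symbol and the group mean by a bar. The groups are apart in Ddx58, Dhx58, Ifit1 and Mx2 and overlap in the other 5 genes.

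Among the helicases, Ddx58 (RIG-I, chr4:40203773-40239828) fell. Its level was 1.502 and 1.42 RPKM in siCtrl and 0.820, 0.951 and 0.730 in siEwsr1, from 167 and 173 reads against 87, 143 and 90. Every siEwsr1 library was below both controls, and the control libraries lay closer to each other than the siEwsr1 libraries did. The log2 fold change was -0.73 ± 0.17 (SE; limma, adjusted p = 0.0397), a fall of 39.8% on the scale with the pseudocount. This call is close to the threshold. It depends on the covariate of limma's variance trend, which was chosen after both results had been seen: with the trend on the mean log2 RPKM in place of the mean log2 CPM (reads scaled to the library total), the adjusted p was 0.117. The call was also lost with a pseudocount of 1 (limma, adjusted p = 0.0844) or without siEwsr1 replicate 1 (0.156). The same held with no filter on low values (limma, adjusted p = 0.140) and with limma without trend or robust moderation (0.103). Without siCtrl replicate 1 or siCtrl replicate 2 it was lost as well, at log2 fold changes of -0.68 and -0.78. The direction was the same in all 16 alternatives.

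Ifih1 (MDA5, chr2:62595798-62646255), which binds long double-stranded RNA, was at 0.225 and 0.424 RPKM in siCtrl and 0.171, 0.293 and 0.133 in siEwsr1. The 2 controls differed from each other by more than the group means did, and siEwsr1 replicate 2 lay between them. Its log2 fold change was -0.49 ± 0.32 (SE; limma, adjusted p = 0.411), with a 95% interval from -1.21 to 0.23 that holds the value of Ddx58. A difference between these sensors in their response was not tested.

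Dhx58 (LGP2, chr11:100694884-100704271) had the opposite sign. It was at 0.407 and 0.282 RPKM in siCtrl and 0.670, 1.05 and 0.665 in siEwsr1, on 21 and 16 reads against 33, 73 and 38. The siEwsr1 libraries were all above the controls, with replicate 2 the highest. The log2 fold change of 1.01 ± 0.30 (SE) missed the threshold (limma, adjusted p = 0.0791). Without siEwsr1 replicate 3 it passed (log2 fold change 1.12, limma adjusted p = 0.0198), in a fit that called 3740 genes in place of 780. It did not pass without siEwsr1 replicate 1 (limma, adjusted p = 0.181) or siEwsr1 replicate 2 (0.161). Nor was it called without siCtrl replicate 1 or siCtrl replicate 2, at log2 fold changes of 1.22 and 0.80. An antisense gene, Dhx58os, shares 141 exonic bases with it and was listed at 0 reads in all libraries, while the strand setting of the authors' counting is not given in the sources used here.

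Eif2ak2 (PKR, chr17:78852564-78882573), the kinase of the group and its best measured member with 816 to 1341 reads per library, was level between the groups. Its 2 control values, 10.3 and 10.9 RPKM, lay inside the span of the siEwsr1 values of 10.6, 12.3 and 9.76. The log2 fold change was 0.05 ± 0.12 (SE; limma, adjusted p = 0.848), and its 95% interval from -0.21 to 0.31 does not hold the -0.73 of Ddx58. Only RNA was measured, so the phosphorylation that makes PKR active is not seen in these values.

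Mx2 (chr16:97535308-97560900) showed the largest fall of the 9 genes. It was at 1.51 and 1.87 RPKM in siCtrl and 0.478, 0.389 and 0.348 in siEwsr1, on 86 and 117 reads against 26, 30 and 22. No siEwsr1 library reached 0.5 RPKM and no control was under 1.5, so the groups were far apart compared with the spread within either. The log2 fold change was -1.81 ± 0.24 (SE; limma, adjusted p = 0.00390), and 16 of the 14844 tested genes had a lower value. In mean RPKM without the pseudocount the controls were 4.17 times as high. GENCODE M21 types Mx2 as a polymorphic pseudogene, a gene that is intact in some mouse strains and disrupted in others. The call was lost with no filter on low values (limma, adjusted p = 0.0567) and with limma without trend or robust moderation (adjusted p = 0.0715). It was also lost without siCtrl replicate 1 (log2 fold change -1.94) or siCtrl replicate 2 (-1.67). These fits leave 1 control and take its spread from the other group. The direction was the same in all 16 alternatives. Mx1, its paralog, looked up after these values were seen, had a log2 fold change of -0.10 ± 0.24 (SE; limma, adjusted p = 0.838) with overlapping groups. The difference between Mx1 and Mx2 was not tested.

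Ifit1 (chr19:34640871-34650009) differed in sign from Mx2. It was listed at 0 in siCtrl replicate 1, where 3 reads (0.0716 RPKM) is the limit that a count of 0 allows, and had 2 reads (0.0435 RPKM) in siCtrl replicate 2. The siEwsr1 libraries had 12, 15 and 10 reads, or 0.3003, 0.265 and 0.215 RPKM. All 3 were above both controls, but the gene entered the test through the siEwsr1 libraries alone, since no control reached 10 reads. The summed reads, 2 against 37, gave a ratio of 11.4 per counted read, with an exact 95% interval from 2.93 to 97.3 that covers counting error only. The log2 fold change of 1.59 ± 0.48 (SE) was not called (limma, adjusted p = 0.0871). At so few reads the value follows the pseudocount, with 0.30 at a pseudocount of 1 and 3.55 at 0.01, where it was called (adjusted p = 0.0339). Over the 5 libraries, 97.4% of the tested genes had a higher mean level than Ifit1.

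Ifit3 (chr19:34583531-34588731), its neighbour on chromosome 19, did not repeat this pattern. It had 3 and 4 reads in siCtrl and 1, 0 and 5 in siEwsr1, or 0.109 and 0.132 RPKM against 0.0381, 0 and 0.164. The groups overlapped, and the ratio of summed reads was 0.526 (exact 95% interval 0.146 to 1.83), so that neither a rise nor a fall was detectable at this depth. Ifit1 and Ifit3 belong to a family of similar genes, and how the authors counted reads that fit several of them is not given in the sources used here. Of that family, looked up after these values were seen, Ifit1bl1 and Ifit2 were tested and not called. Ifit1bl1 had 1 and 3 reads in siCtrl and 11, 26 and 4 in siEwsr1 (log2 fold change 1.34 ± 0.57, SE). It entered the test through siEwsr1 libraries alone. Ifit2 had 0.34 ± 0.23 (SE) with overlapping groups. Ifit1bl2 and Ifit3b had too few reads to be tested.

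Isg15 (chr4:156199424-156200818) varied more among the siEwsr1 libraries than between the groups. It was at 0.923 and 0.688 RPKM in siCtrl and at 0.440, 1.36 and 1.59 in siEwsr1, on 5 to 22 reads. SiEwsr1 replicate 1 was below both controls, and replicates 2 and 3 were above them. The log2 fold change was 0.31 ± 0.51 (SE; limma, adjusted p = 0.768), with a 95% interval from -0.81 to 1.43. No direction can be read from it.

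Irf7 (chr7:141262706-141266481), the transcription factor that amplifies interferon production, had 3 and 9 reads in siCtrl and 6, 0 and 9 in siEwsr1, at most 0.138 RPKM. The groups overlapped and the ratio of summed reads was 0.768 (exact 95% interval 0.335 to 1.80). Irf7 shares 45 exonic bases with Phrf1 on the opposite strand, which had 1100 to 1622 reads, so that without a stated strand setting some of these few reads could belong to either gene.

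**Figure D2:**
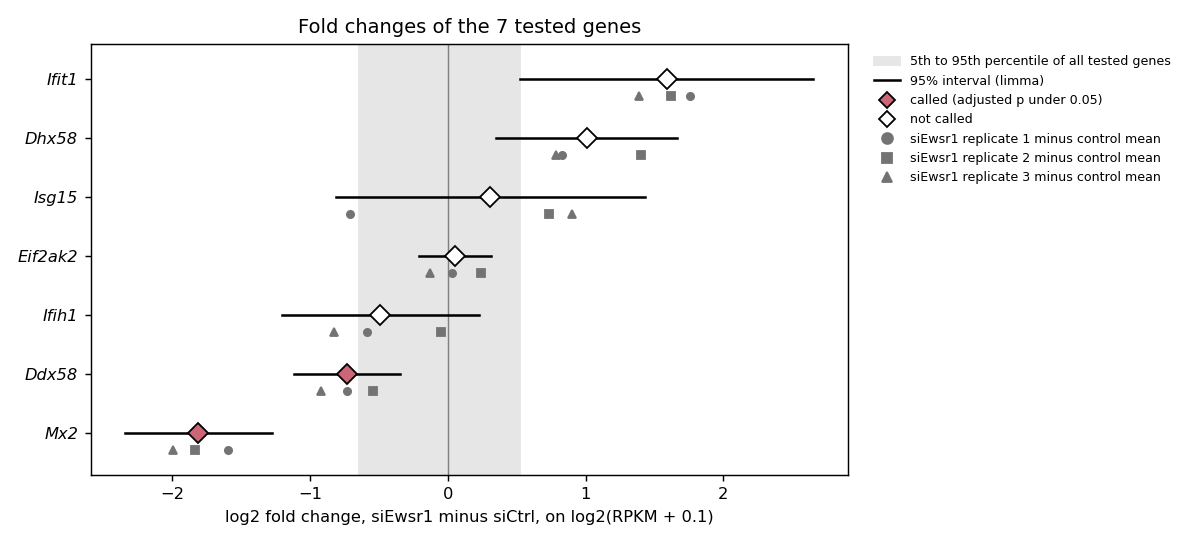
Log2 fold change, siEwsr1 minus siCtrl on log2(RPKM + 0.1), of the 7 tested genes with limma's 95% interval (diamonds and lines), each siEwsr1 library minus the control mean (small symbols) and the span from the 5th to the 95th percentile of all tested genes (grey). Mx2 at -1.81 and Ddx58 at -0.73 are called, Dhx58 at 1.01 and Ifit1 at 1.59 lie above the grey span without a call, and the 3 Isg15 libraries fall on both sides of 0.

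The rest of the pathway was read from 7 lists, 157 genes in all, of which 24 were listed at 0 in every library. A total of 7 genes (6.31% of those tested) was called, 2 higher and 5 lower, beside 5.25% of all tested genes. The lists hold Ddx58 and Mx2, and the median log2 fold change of their tested genes was -0.06 against -0.01 over all tested genes.

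Of 27 RNA sensors and cofactors, 17 were tested. Only Ddx58 was called (5.88% of the 17, beside 5.25% of all tested genes). Of the 17, 14 had a negative log2 fold change, with a median of -0.19 beside -0.01 over all tested genes. This direction of the list was not tested. None was called higher by limma or by limma with voom weights. At an unadjusted p under 0.05 (limma), 1 of the 17 was higher (Dhx58) and 4 of the 17 were lower, Ddx58 included. Of all tested genes, 10.8% were higher and 11.4% lower at that unadjusted p. The most abundant were Zc3hav1, the antiviral zinc finger protein ZAP, at 22.1 ± 1.11 RPKM in siCtrl and 19.2 ± 0.753 in siEwsr1, and Prkra, a protein activator of PKR, at 20.4 ± 0.609 and 19.7 ± 1.18, neither of which was called. In absolute level these cofactors were thus far above RIG-I and MDA5. Of the downstream adaptor, looked up after its values were seen, Mavs had a log2 fold change of -0.36 ± 0.15 (SE; limma, adjusted p = 0.198).

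Of the 11 DNA sensing names, 9 are in the annotation (the others are alternative names) and 6 were tested. None was called by limma or by limma with voom weights, and 2 had an unadjusted p under 0.05, 1 in each direction. Ddx41, Aim2 and Samhd1 were the most abundant, with log2 fold changes of -0.12, 0.06 and -0.02. Among 19 tested signalling genes of 22, Traf6 alone was called (5.26%, beside 5.25% of all tested genes) and rose. Traf6, a ubiquitin ligase that links receptors to NF-kappaB, was at 3.53 and 3.37 RPKM in siCtrl and 5.08, 4.93 and 4.80 in siEwsr1, with no overlap and a log2 fold change of 0.52 ± 0.10 (SE; limma, adjusted p = 0.0219). The list's most abundant genes, Nfkbia (the NF-kappaB inhibitor), Chuk and Tbk1 (kinases), were not called, and its median was 0.00.

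No interferon gene was measurable. Of 11 type I, II and III interferon genes, 10 were listed at 0 in all 5 libraries, among them Ifnb1 and Ifng, and Ifnz had 1 read in 1 library. A count of 0 allows up to 3 reads per library, so that a level under this cannot be told from none. Of 16 receptor and JAK-STAT genes 15 were tested, among them the receptor genes Ifnar1, Ifnar2, Ifngr1 and Ifngr2. The receptor gene Ifnlr1 was listed at 0 in all 5 libraries. Ifngr1, a chain of the interferon gamma receptor, rose and was the only gene called (6.67% of the 15, beside 5.25% of all tested genes). It was at 3.45 and 3.89 RPKM in siCtrl and at 6.42, 5.76 and 5.77 in siEwsr1 (log2 fold change 0.70 ± 0.14, SE; limma, adjusted p = 0.0197). Every siEwsr1 value was above both controls. Its partner chain Ifngr2, Jak1 and the phosphatase gene Ptpn2 were the most abundant of the list and were not called, with log2 fold changes of -0.22, -0.04 and 0.23.

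Of 69 interferon-induced genes 51 were tested, and 4 were called, all lower: Mx2, Irgm2, Trim21 and Lgals9. They are 7.84% of the 51, beside 5.25% of all tested genes called and 2.82% called lower. None was called higher, while limma with voom weights called Ifit1 higher. At an unadjusted p under 0.05 (limma), 6 of the 51 were higher and 11 of the 51 were lower. The shares of all tested genes at that unadjusted p were 10.8% higher and 11.4% lower. Irgm2, an immunity-related GTPase, was at 1.96 and 2.05 RPKM in siCtrl and 0.793, 0.965 and 1.148 in siEwsr1 (log2 fold change -0.98 ± 0.20, SE; limma, adjusted p = 0.0242). It shares 162 exonic bases with Igtp on the same strand, a gene of the same family. Trim21, an antibody receptor and ubiquitin ligase, was at 7.48 and 7.54 RPKM against 4.81, 4.997 and 5.38 (-0.55 ± 0.11, SE; limma, adjusted p = 0.0260). Lgals9, which encodes galectin-9, was at 1.16 and 1.11 RPKM against 0.435, 0.504 and 0.428 (-1.14 ± 0.28, SE; limma, adjusted p = 0.0424). In all 3 genes every siEwsr1 library was below both controls, as in 20.6% of all tested genes. The most abundant genes of the list, B2m (beta-2-microglobulin), Pnpt1 (a mitochondrial RNA nuclease) and H2-K1 (an MHC class I chain), were not called, with log2 fold changes of -0.09, 0.27 and -0.16. The list's median was -0.08. Without siCtrl replicate 1 or siCtrl replicate 2 no gene of the 7 lists was called, and without siEwsr1 replicate 1 only Mx2 was. Trim21 was also not called without siEwsr1 replicate 2 (limma, adjusted p = 0.0523). Lgals9 was not called by limma with voom weights (adjusted p = 0.0506). With the variance trend on mean log2 RPKM, only Ifngr1 and Mx2 of the list genes were called.

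PKR is 1 of 4 kinases of eIF2alpha, and none of the 4 was called by limma or by limma with voom weights. Eif2ak4 (GCN2, which responds to amino acid shortage) had the largest value, 0.39 ± 0.11 (SE; limma, adjusted p = 0.0758), and was alone at an unadjusted p under 0.05.

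**Figure D3:**
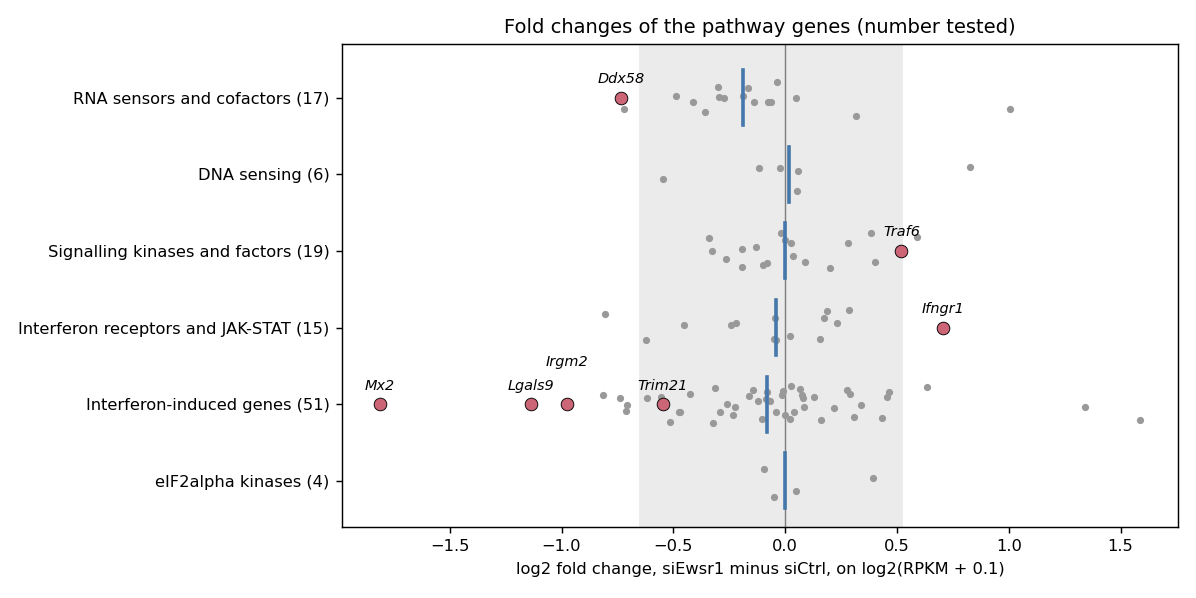
Log2 fold change, siEwsr1 minus siCtrl on log2(RPKM + 0.1), of the tested genes of 6 lists (grey points, red where called by limma, blue line at each list's median, grey band from the 5th to the 95th percentile of all tested genes). Ddx58, Mx2, Lgals9, Irgm2 and Trim21 are called lower, Traf6 and Ifngr1 higher, and the list medians lie between -0.19 and 0.02.

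Macrophages and microglia express many of these genes strongly. Of 8 markers of these cells 1, Cd68, was tested, Csf1r and C1qa were listed at 0 in every library, and the summed level of the list was 0.811 and 1.12 RPKM in siCtrl and 0.596 to 1.01 in siEwsr1. Of 7 fibroblast and mural cell markers 3 were tested, with Lum listed at 0. Of these 3, 2 had a negative log2 fold change and 1 a positive one (0.20), and only Acta2 was called. Acta2, smooth muscle actin, stood at 2.76 ± 0.182 RPKM in siCtrl and fell to 0.857 ± 0.0692 in siEwsr1 (log2 fold change -1.56 ± 0.23, SE; limma, adjusted p = 0.00575). The summed level of the list, most of which is Acta2, was 3.23 and 3.44 RPKM in siCtrl and 1.16 to 1.37 in siEwsr1. Acta2 moved in the direction of Mx2 and Ddx58, and its part in their values was not tested.

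**Figure D4:**
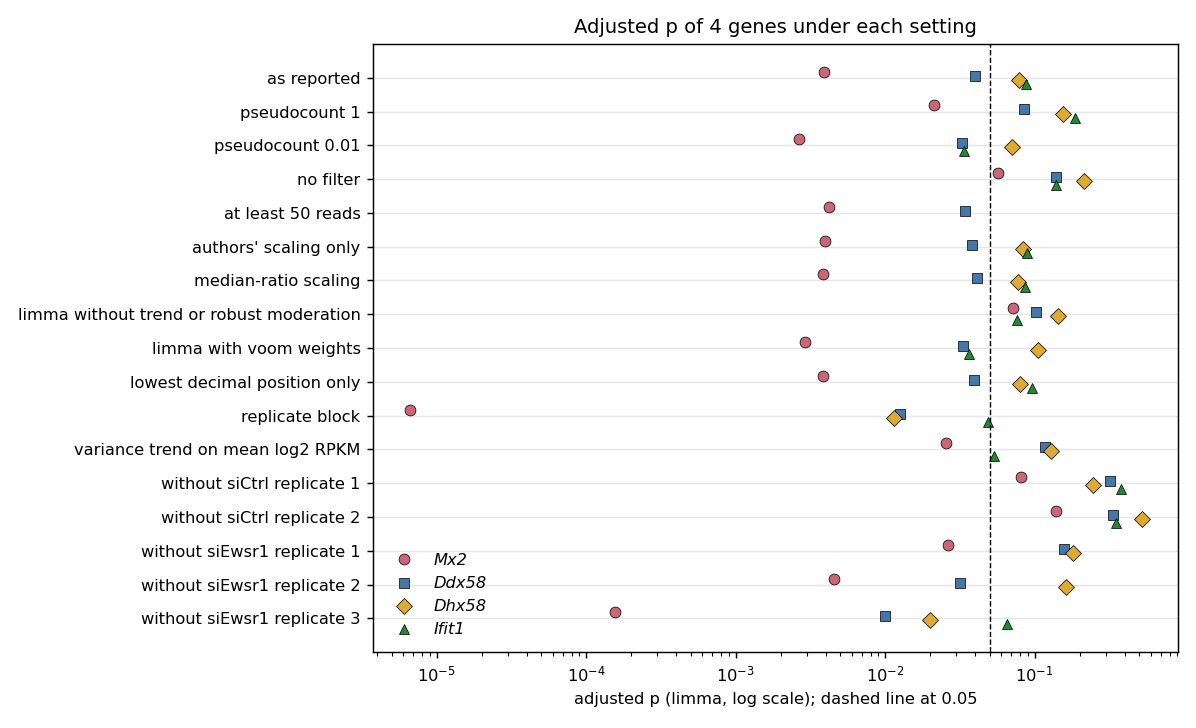
Limma adjusted p (horizontal log axis) of Mx2, Ddx58, Dhx58 and Ifit1 as reported and under 16 alternative settings, with the threshold of 0.05 as a dashed line; a missing point means that the gene was not tested there. Mx2 is under 0.05 in 13 of 17 settings, Ddx58 in 10 of 17, Dhx58 in 2 of 16 and Ifit1 in 3 of 14.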

How the data were processed

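The submitters' processing notes name STAR 2.5.2b, featureCounts 1.5.1 and edgeR, with the build GRCm38. Ribosomal RNA was depleted and a stranded kit was used on 2 µg of RNA, per the labels' protocols. The authors deposited 1 value per gene and library with no unit in any header. These behave as RPKM. Those under 1 are intact, while those of 1 or above, 12129 to 12449 in each library, have no usable decimal point. The point was restored by requiring that value, exonic length (GENCODE M21, or solved from the values in 602 genes) and library total give whole reads within 1e-06, with between-library spread deciding ties, without group labels. Of 27255 genes above 0, 27072 were kept, 172 were left out for odds under 20 and 11 could not be read. Recovered reads summed to within 0.045% of each total. The settings of this step were adjusted over several passes on these files, judged by those sums and by which genes were left out, Ewsr1 among them at first.

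Values were scaled by trimmed means (30% of ratios, 5% of levels) and tested with limma 3.58.1 (R 4.3.3) on log2(RPKM + 0.1), group as the only term, robust moderation, Benjamini-Hochberg adjustment over all tested genes. The plan named a variance trend but not its covariate. Limma's usual trend on mean log2 RPKM was fitted first (267 genes called). The trend on mean log2 CPM (780 called) was adopted after both, each with and without robust moderation, had been seen with the 9 genes' p-values: it follows counting error and the processing of an earlier account of these data. Of these 2 trends Ddx58 passes only with the adopted one (adjusted p = 0.0397 against 0.117). The restoration and the fit were also run on simulated reads of genes that the restoration had kept. Such a run cannot tell how the genes left out would be read.

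The 9 genes and all lists were chosen with earlier results of these data known. Every one of the 9 genes is named. From the lists, genes called and the 3 with the highest mean RPKM are named, and a few others as stated. Some genes of the lists are not reported here. An exact permutation test of 2 against 3 libraries cannot give p under 0.1 and was not used. Intervals from reads cover counting error only. A total of 16 alternatives was run, 1 of them added after the data were seen (the variance trend on mean log2 RPKM).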

Additional observations from a re-analysis of the deposited data

How the results depend on the processing

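The number of genes called was 780 as reported, 387 with a pseudocount of 1, 60 with no filter on low values, 267 with the variance trend on mean log2 RPKM, and 0 with limma without trend or robust moderation (2765 at an unadjusted p under 0.05). Of the 9 genes these settings called 1, 0, 1 and 0, and of the 7 lists they called 6, 0, 2 and 0. Ewsr1 without trend or robust moderation kept its log2 fold change of -0.96 but had an adjusted p of 0.0715. Leaving out 1 library gave 6 (without siCtrl replicate 2) to 3740 (without siEwsr1 replicate 3) genes called, 0 to 3 of the 9 genes, 0 to 30 of the list genes, and log2 fold changes of -0.97 to -0.93 for Ewsr1, whose adjusted p without siCtrl replicate 2 was 0.0584. Eif2ak2 had -0.033 without siEwsr1 replicate 2, its only change of sign, in a range of -0.033 to 0.14 over the left-out libraries. The cause of these differences was not tested. The replicate block called 3320 genes, 4 of the 9 (Mx2, Ddx58, Dhx58 at an adjusted p of 0.0114 and Ifit1 at 0.0487) and 28 list genes. Same-numbered libraries had correlations of their deviations from the group mean of 0.03 and -0.12. The deviations of the 2 controls mirror each other, and siEwsr1 replicate 3 has no same-numbered control. Whether same-numbered libraries were prepared together therefore cannot be told from these correlations, and the labels do not state it. The scaling, voom and decimal settings and the other thresholds left the reported count within 1.5 times (618 to 832).

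Depth limits Ifit1, Ifit3, Irf7 and Isg15, each under 23 reads in every library, where 1 read moves the level. A 10-fold step between groups is the size that a lost decimal point can hide. The siEwsr1 values of Mx2 and Ddx58 are intact and under 1 RPKM, and a higher reading of their siCtrl values would widen the difference.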
